A study of Mus musculus with 6 samples.

Results

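The genes of the repressor REST and of the corepressors it recruits were followed in mouse retinal ganglion cells (RGCs) at embryonic day 18 (E18) and postnatal day 5 (P5). The members were chosen by gene symbol: Rest itself, the CoREST genes Rcor1, Rcor2 and Rcor3, the Sin3 gene Sin3a, and the enzyme genes Kdm1a, Hdac1, Hdac2, Ehmt1 and Ehmt2. All 10 stood in the table of 24060 genes, and 10 of 10 passed the filter on low counts that left 16449 genes for testing. RGCs of C57BL/6 mice were taken from papain-dissociated retinas by immunopanning, in which macrophages are first removed on antibody-coated dishes and RGCs are then held by antibodies against CD90 (Thy1). There were 3 samples at E18 (replicates 1, 3 and 4) and 3 at P5 (replicates 6, 8 and 9), with no treatment or genetic change at either age. The study compared these ages because RGCs extend axons readily before birth and lose that capacity soon after it. The labels do not say whether samples came from separate animals or pools, so p-values measure the spread between these samples, which may be technical.

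REST is a zinc-finger protein that binds a DNA element called RE1 beside many neuronal genes and silences them in cells that are not neurons. It does not act alone: its amino-terminal end recruits Sin3 with histone deacetylases, and its carboxy-terminal end recruits CoREST, which holds the histone demethylase LSD1 (the product of Kdm1a) and the same deacetylases, while the histone methyltransferases G9a (Ehmt2) and GLP (Ehmt1) add a further repressive mark. REST falls as neural progenitors become neurons, and most of its corepressors also serve other transcription factors.

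Library totals ran from 81213639 to 114512853 counts on genes. The 15 RGC markers were detected in every library, with summed levels of 9883 to 11657 CPM (counts scaled to a common library size) at E18 and 10043 to 11165 at P5. These sums hold opposite changes. Thy1, the antigen of the selection, averaged 247 CPM at E18 and 553 at P5, and Isl1 557 and 260. Over the 15 markers the median log2 fold change, E18 over P5, was -0.05, and 7 were positive. Markers of retinal progenitors and of dividing cells set E18 replicate 1, and less so replicate 3, apart from the other libraries. The 12 progenitor markers summed to 315 CPM in E18 replicate 1, 139.6 in replicate 3 and 43.4 in replicate 4, against 26.0 to 38.4 at P5. The 14 markers of dividing cells summed to 379.5, 146.6 and 86.5 CPM in the same order, against 67.5 to 84.9 at P5. Amacrine markers summed to between 355 and 548 CPM at E18 and between 608 and 744 at P5, and 11 microglia and macrophage markers together stayed between 3.64 and 5.35 CPM in every library. Endothelial and pericyte markers summed to 72.5, 64.5 and 16.5 CPM in E18 replicates 1, 3 and 4, against 14.6 to 17.8 at P5, and markers of Müller glia and astrocytes to 641, 583 and 516 CPM, against 488 to 530. Sums at E18 and P5 were 74.9 to 81.3 and 66.7 to 68.3 CPM for photoreceptor markers and 573 to 667 and 322 to 393 for bipolar markers. They were 93.9 to 94.4 and 56.4 to 75.5 for oligodendrocyte markers, and at most 1.82 for red blood cell markers. Most of the bipolar sum was Isl1, also an RGC marker, with 522 to 617 CPM at E18 and 207 to 309 at P5. Over the 7 bipolar markers tested the median log2 fold change, E18 over P5, was -0.82, and 3 were positive.

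Transcripts of most genes of the REST machinery were more abundant in the RGC samples of E18 than in those of P5. Of the 10 members, 8 were higher at E18 and 1, Rcor3, was lower. Calls were made at a Benjamini-Hochberg adjusted p under 0.05 in edgeR's quasi-likelihood test, over all genes tested. Over all genes, 20.8% were called higher and 22.5% lower, or 43.4% in either direction. Rcor1 was the only member not called. The E18 and P5 values did not overlap in 10 of 10 members, 9 with E18 above and 1 with E18 below. Across all genes tested they did not overlap in 56.1%, with E18 above in 27.6% and below in 28.5%. Rest and Rcor2 changed by at least 2-fold, which 6.39% of all genes did toward E18. The median log2 fold change, E18 over P5, was 0.47 over the members and 0.0047 over all genes tested. Summed over the 10 genes, the level was 1156, 1262 and 1201 CPM in E18 replicates 1, 3 and 4 and 853, 919.9 and 787 CPM in P5 replicates 6, 8 and 9.

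**Figure D1:**
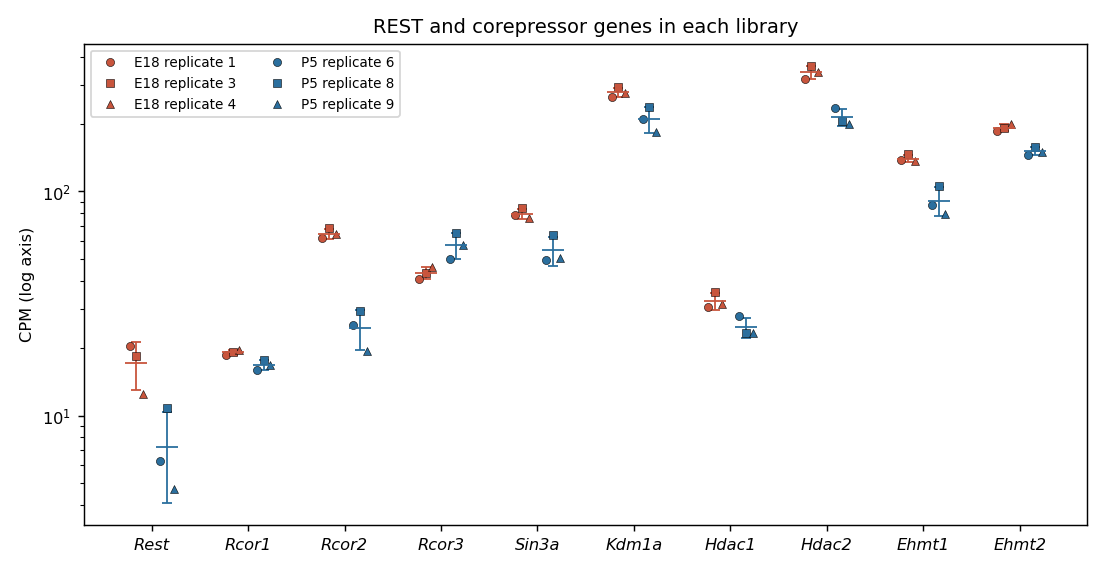
CPM of each gene on a log axis in each of the 6 libraries, with the mean and SD of the 3 libraries at each age. The E18 libraries lay above the P5 libraries for 9 of the 10 genes and below them for Rcor3, and Rest had the widest spread at either age.

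The levels of the members spanned a wide range. Ranked by mean CPM among the genes tested, they ran from the 43.7th percentile for Rest to the 96.2nd for Hdac2, and the lowest count in any library was 440, for Rest in P5 replicate 9. To compare genes, CPM was divided by the length in kb of the transcript matched to the table's RefSeq entry. On this scale the E18 level was 170 CPM per kb for Hdac2, 91.9 for Kdm1a, 51.5 for Ehmt2 and 30.0 for Ehmt1. It was 23.0 for Rcor2, 15.9 ± 1.36 (SD, n = 3) for Hdac1, 15.3 ± 0.852 for Sin3a, 11.5 for Rcor3, 7.04 for Rcor1 and 2.44 for Rest. Hdac1 and Sin3a, neighbours in this order, did not differ beyond their spread. At P5 the order was the same at the top, with 107 CPM per kb for Hdac2 and 70.1 for Kdm1a, and at the bottom, with 6.19 for Rcor1 and 1.03 for Rest. By the matched transcript, Rcor3, at 15.4 CPM per kb, then stood above Rcor2, at 8.74. With the length of all annotated exons in place of the matched transcript, Hdac2, Kdm1a and Ehmt2 remained the highest and Rest the lowest at either age, at 2.37 CPM per kb at E18 and 1.00 at P5. Other places in the order turned with the length used. By all annotated exons Rcor1 and Rcor3 had 3.37 and 3.18 CPM per kb at E18, Rcor2 (20.6) stood above Ehmt1 (17.3) at E18, Sin3a (14.8) stood above Hdac1 (9.41) at E18, and Rcor3 (4.23) stood below Rcor2 (7.82) at P5.

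Rest (ENSMUSG00000029249.15, chr5:77265491-77286432, plus strand, mm10), the DNA-binding subunit, was 2.37-fold higher at E18. Its level was 20.5, 18.41 and 12.4 CPM in E18 replicates 1, 3 and 4 and 6.24, 10.8 and 4.68 CPM in P5 replicates 6, 8 and 9. The ages did not overlap, although E18 replicate 4 stood only a little above P5 replicate 8. The means were 17.1 ± 4.18 CPM at E18 and 7.22 ± 3.16 CPM at P5 (± SD, 3 samples per age), and the log2 fold change was 1.24 with a standard error of 0.30 (edgeR adjusted p = 0.0115). Rest was the most variable member, with a coefficient of variation of 24.4% at E18 and 43.7% at P5, whereas no other member passed 8.53% at E18 or 20.2% at P5. In these bulk samples, fewer cells of a type and less RNA per cell cannot be told apart.

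The E18 libraries stood in the same order by Rest as by the summed markers of progenitors, of dividing cells, of endothelial cells with pericytes and of Müller glia with astrocytes: replicate 1, then 3, then 4. Over the 7 endothelial and pericyte markers tested, however, the median log2 fold change, E18 over P5, was -0.17, and 3 were positive. The sum of that list therefore did not reflect most of its genes. For the 10 markers of Müller glia and astrocytes tested the median was 0.38, and 6 were positive. The sums of amacrine, bipolar, photoreceptor, oligodendrocyte, microglia and macrophage, red blood cell and RGC markers stood in other orders. E18 replicate 4, whose progenitor markers were near the P5 range, had 12.4 CPM of Rest, above the 3 P5 libraries. Without E18 replicate 1 the log2 fold change of Rest was 1.10 (edgeR adjusted p = 0.0367). With E18 replicates 1 and 3 both left out, which leaves 1 library at E18 whose spread is assumed to be that of the P5 libraries, it was 0.79 (edgeR adjusted p = 0.223). Under that omission the median log2 fold change of the progenitor markers was 0.19, against 2.96 with all libraries. Leaving out P5 replicate 6 also ended the call, with a log2 fold change of 1.14 (edgeR adjusted p = 0.0586). The part of the cells behind these marker lists in the difference of Rest was not tested.

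**Figure D2:**
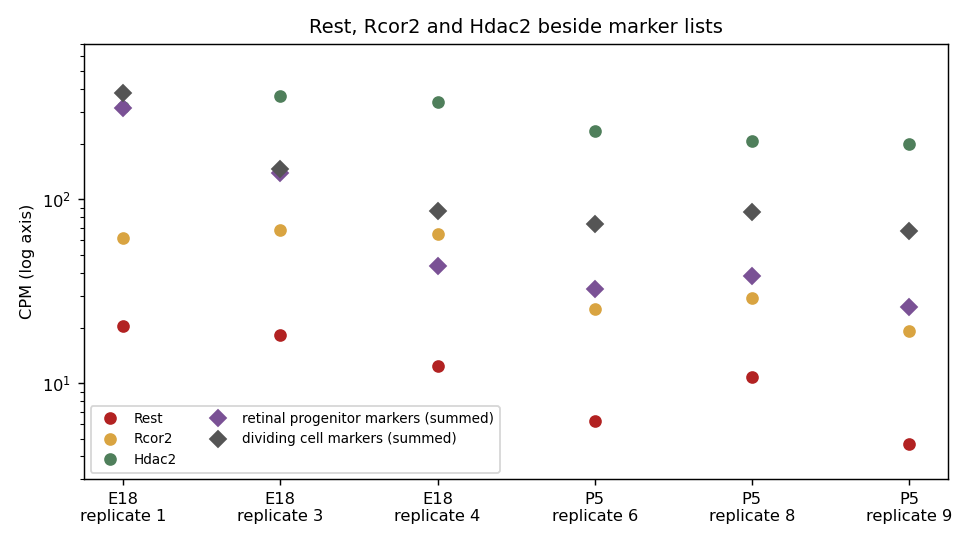
CPM on a log axis, by library, of Rest, Rcor2 and Hdac2 (circles) and of the summed retinal progenitor and dividing cell markers (diamonds). Within E18, Rest and both marker sums were highest in replicate 1 and lowest in replicate 4, whereas Rcor2 and Hdac2 were highest in replicate 3.

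Of the 9724 genes that averaged 10 CPM or more, those whose levels followed Rest most closely over the 6 libraries were Dbf4, Msi1 and D830031N03Rik. Likeness was the root mean square difference in log2 CPM after centring each gene, which was 0.060 for Dbf4, 0.14 for Msi1 and 0.15 for D830031N03Rik. Dbf4, an activator of the kinase that starts DNA replication, stood at 32.4, 29.0 and 21.2 CPM at E18 and 10.2, 16.05 and 7.20 CPM at P5. Msi1, an RNA-binding protein of neural progenitors, stood at 23.5, 20.3 and 13.9 CPM at E18 and 6.08, 9.85 and 5.71 CPM at P5. Each of these genes was highest at E18 in replicate 1 or 3 and, like Rest, highest at P5 in replicate 8. They were chosen for likeness to Rest over these same libraries, so this shared pattern is not a separate result.

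The CoREST genes, which encode the scaffolds that join LSD1 and the deacetylases to REST, moved in different directions. Rcor2 fell from E18 to P5, Rcor3 rose, and Rcor1 changed too little to be called.

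Rcor2 (ENSMUSG00000024968.14, chr19:7267325-7275225, plus strand) changed by the most among the members with all libraries, although its difference from Rest was within the standard error of Rest and Rest changed by more without E18 replicate 4 (1.43 against 1.40 on the log2 scale) or without P5 replicate 8 (1.63 against 1.52). It stood at 61.7, 68.5 and 64.5 CPM in E18 replicates 1, 3 and 4 and at 25.4, 29.2 and 19.4 CPM in P5 replicates 6, 8 and 9. The lowest E18 library was above the highest P5 library by more than the range within either age. The log2 fold change was 1.39 with a standard error of 0.15 (edgeR adjusted p = 0.000363), or 2.63-fold, and with E18 replicates 1 and 3 left out it was 1.40 (edgeR adjusted p = 0.00605).

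Rcor3 (ENSMUSG00000037395.15, chr1:192098546-192138062, minus strand) went the other way. Its level was 40.6, 43.2 and 46.0 CPM at E18 and 49.9, 64.9 and 58.0 CPM at P5, without overlap. The log2 fold change was -0.41 with a standard error of 0.12 (edgeR adjusted p = 0.0200), which is 1.33-fold higher at P5. This call was lost without E18 replicate 1 (log2 fold change -0.36, edgeR adjusted p = 0.0841) and without E18 replicate 3 (-0.41). Exons of Rcor3 overlap those of 3 other genes of the GENCODE annotation, those of Sin3a overlap 2, and those of Rcor1 and Ehmt1 overlap 1 each. Since it is not known whether counting used the strand, reads of those genes could not be told from those of these 4 members.

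Rcor1 (ENSMUSG00000037896.17, chr12:111039351-111115901, plus strand) had 18.6, 19.2 and 19.6 CPM at E18 and 15.9, 17.8 and 16.8 CPM at P5. The E18 libraries were above the P5 libraries by a small margin, with a log2 difference of 0.18 and a standard error of 0.10 (edgeR adjusted p = 0.175).

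Ratios within a library do not depend on its scaling, and their difference between ages does not depend on gene length. The ratio of Rcor2 to Rcor1 counts was 3.32, 3.57 and 3.29 at E18 and 1.60, 1.64 and 1.15 at P5. The ratio of Rcor3 to Rcor1 counts was 2.18, 2.25 and 2.35 at E18 and 3.14, 3.65 and 3.45 at P5. Neither ratio overlapped between the ages, and the log2 difference, E18 minus P5, was 1.23 for the first and -0.59 for the second. An exact two-sided permutation test of 3 libraries against 3 gave p = 0.1 for each of 6 ratios examined, the smallest p it can give, and the adjusted p was also 0.1, so this test cannot pass 0.05 with these samples.

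As shares of the summed CPM per kb of the CoREST genes, Rcor2 took 55.3% ± 1.34 at E18 and 28.8% ± 4.17 at P5 (± SD, 3 samples per age), and Rcor3 took 27.8% ± 1.10 and 50.7% ± 3.51. Rcor1 took 16.9% ± 0.423 at E18 and 20.5% ± 1.31 at P5. The leading gene at P5 depended on the length used. With the length of all annotated exons, which is far longer for Rcor3 (13622 bases against 3748 in the matched transcript), Rcor2 took 75.8% at E18 and 51.8% at P5, and Rcor3 took 11.7% and 28.3%. The shift from Rcor2 to Rcor3 was present with either length.

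**Figure D3:**
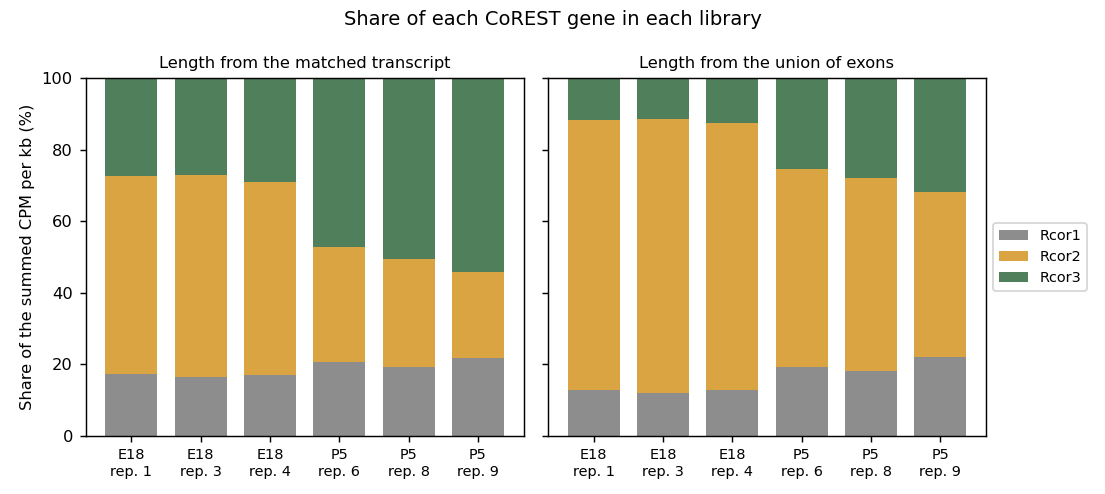
Share (%) of Rcor1, Rcor2 and Rcor3 in their summed CPM per kb in each library, with gene length taken from the matched transcript (left) or from all annotated exons (right). Rcor2 took a smaller share and Rcor3 a larger share in each P5 library than in any E18 library in both panels.

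Sin3a (ENSMUSG00000042557.14, chr9:57072040-57128366, plus strand) encodes the scaffold of the other corepressor arm. Its level was 78.2, 84.4 and 75.8 CPM at E18 and 49.3, 64.1 and 50.6 CPM at P5. P5 replicate 8 was the closest to E18 but stayed below it. The log2 fold change was 0.54 with a standard error of 0.12 (edgeR adjusted p = 0.00721), or 1.45-fold. Its paralog Sin3b did not pass the test, with 158 ± 7.90 CPM at E18 and 150 ± 11.3 CPM at P5 (± SD, 3 samples per age) and a log2 difference of 0.07 (edgeR adjusted p = 0.544), whose sign turned to -0.0028 without P5 replicate 8. The difference between the changes of Sin3a and Sin3b was not tested.

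The deacetylases Hdac1 and Hdac2, which remove acetyl groups from histones in both corepressor arms, were higher at E18. Hdac2 (ENSMUSG00000019777.16, chr10:36974544-37001889, plus strand) stood at 318, 364 and 340 CPM at E18 and at 235, 207 and 201 CPM at P5. The gap between the ages was wider than the range within either. Its log2 fold change was 0.67 with a standard error of 0.10 (edgeR adjusted p = 0.00124), or 1.59-fold, and the call held with E18 replicates 1 and 3 left out (0.68, edgeR adjusted p = 0.0337). Hdac1 (ENSMUSG00000028800.15, chr4:129516104-129542713, minus strand) stood at 30.4, 35.6 and 31.3 CPM at E18 and at 27.7, 23.2 and 23.5 CPM at P5. P5 replicate 6 came close to E18 replicate 1 without reaching it. The log2 fold change was 0.39 with a standard error of 0.12 (edgeR adjusted p = 0.0253), and the call was lost without E18 replicate 3, E18 replicate 4 or P5 replicate 9, with adjusted p up to 0.111.

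Hdac2 made up most of this pair at either age, with 91.4% ± 0.230 of their summed CPM per kb at E18 and 89.8% ± 0.222 at P5 (± SD, 3 samples per age). The ratio of Hdac1 to Hdac2 counts was lower in each E18 library than in any P5 library, with a log2 difference of -0.28 (exact permutation p = 0.1, the smallest possible). Of the related class I enzymes, Hdac3 did not pass the test, with 113 ± 5.57 CPM at E18 and 116 ± 3.04 CPM at P5 (± SD, 3 samples per age), and its log2 difference of -0.04 turned to 0.0010 without E18 replicate 1.

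Kdm1a (ENSMUSG00000036940.15, chr4:136550540-136602723, minus strand), whose product LSD1 removes methyl groups from lysine 4 of histone H3, was 1.31-fold higher at E18. It had 264, 291 and 274 CPM at E18 and 210, 239 and 184 CPM at P5. The lowest E18 library was above the highest P5 library, replicate 8. The log2 fold change was 0.39 with a standard error of 0.11 (edgeR adjusted p = 0.0196), and the call was lost without E18 replicate 3 or without P5 replicate 6 (edgeR adjusted p = 0.0774 and 0.0596). Counts of Kdm1a exceeded those of Rcor1 in every library, by a log2 ratio that was 0.21 greater at E18 (exact permutation p = 0.1).

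The methyltransferase genes Ehmt1 and Ehmt2, whose products act together on lysine 9 of histone H3, were also higher at E18. Ehmt1 (ENSMUSG00000036893.17, chr2:24789928-24919614, minus strand) had 138, 146 and 137 CPM at E18 and 87.1, 106 and 79.6 CPM at P5. Its log2 fold change was 0.63 with a standard error of 0.12 (edgeR adjusted p = 0.00335). Ehmt2 (ENSMUSG00000013787.15, chr17:34898469-34914052, plus strand) had 186, 191 and 201 CPM at E18 and 146, 159 and 151 CPM at P5, with a log2 fold change of 0.35 and a standard error of 0.08 (edgeR adjusted p = 0.0101). Neither gene overlapped between the ages. Ehmt2 held the larger share of the pair, 63.2% ± 1.42 of the summed CPM per kb at E18 and 67.7% ± 2.55 at P5 (± SD, 3 samples per age), and the ratio of Ehmt1 to Ehmt2 counts was higher in each E18 library than in any P5 library, by 0.29 on the log2 scale (exact permutation p = 0.1).

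**Figure D4:**
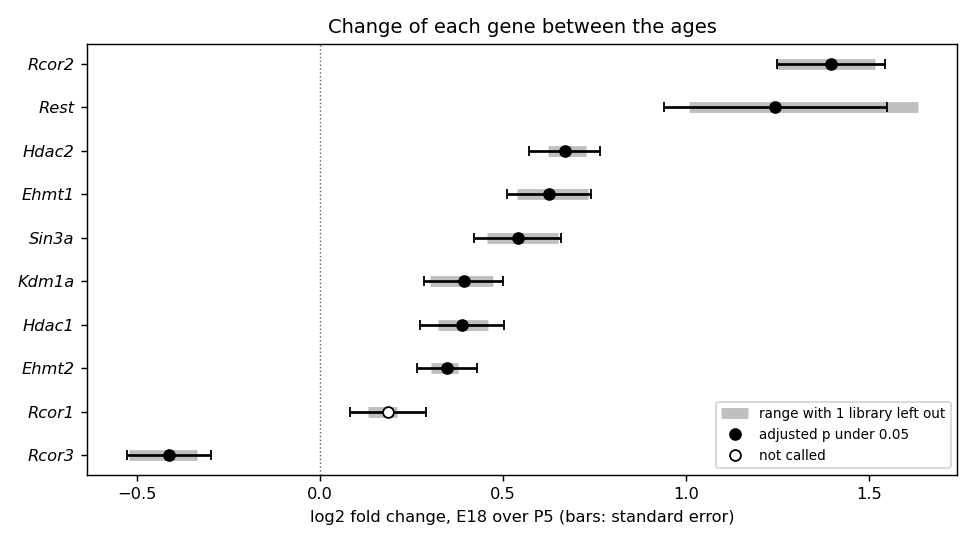
Log2 fold change, E18 over P5, of each gene with its standard error. Filled points passed an edgeR adjusted p of 0.05, the open point (Rcor1) did not, and grey bars span the values with each library left out in turn. Only Rcor3 lay below 0, and Rest had the widest grey bar, from 1.01 to 1.63.

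The P5 libraries differed from each other in a way that several members shared. P5 replicate 8 was the highest P5 library for 8 of the 10 members, against 38.8% of all genes tested, and the exceptions were Hdac1 and Hdac2, which were highest in P5 replicate 6. P5 replicate 8 was also the P5 library nearest to the E18 mean for 6 of the 9 members called, and for 64.2% of all genes called. At E18, replicate 3 was the highest library for 6 members, replicate 4 for 3 and replicate 1 for Rest alone, against 31.4%, 40.9% and 27.6% of all genes tested.

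Leaving out E18 replicates 1 and 3 together left 2 members called, Rcor2 and Hdac2, both higher at E18, where 3.81% of all genes were called higher and 5.67% lower. Rcor3 then had a log2 fold change of -0.31 (edgeR adjusted p = 0.412). The median over the members changed little, at 0.45, and the directions of the 10 members stayed as they were.

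Genes that work with the members were taken from lists of partners, regulators and paralogs. Of 47 genes, 24 were higher at E18, 5 were lower and 18 were not called, with a median log2 fold change of 0.32. Over all genes tested 20.8% were higher and 22.5% lower, the shares to set beside this count and those of each list below. Without E18 replicates 1 and 3, which leaves 1 library at E18, the median was 0.30.

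Of 8 partners of CoREST, 5 were higher at E18 and 3 were not called, with a median log2 fold change of 0.69. The corepressor Ctbp2 stood at 82.0, 95.6 and 84.8 CPM at E18 and at 43.4, 54.4 and 35.6 CPM at P5, a log2 fold change of 0.98 with a standard error of 0.15 (edgeR adjusted p = 0.00162). Gse1, a subunit found with LSD1 and CoREST, had a log2 fold change of 0.91 with a standard error of 0.19 (edgeR adjusted p = 0.00561). In these genes too, P5 replicate 8 was the closest to E18.

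Of 15 partners of Sin3, 7 were higher, 3 lower and 5 not called, with a median of 0.26. Fam60a, a subunit of the Sin3 and deacetylase complex, differed the most of the partner genes. It stood at 55.1, 64.0 and 55.4 CPM at E18 and at 4.61, 11.5 and 1.20 CPM at P5, a 10.03-fold difference (log2 fold change 3.33, standard error 0.62, edgeR adjusted p = 0.00359). The size of this difference depended on single P5 libraries: the log2 fold change was 4.31 without P5 replicate 8 and 2.84 without P5 replicate 9. Sap30, which bridges Sin3 and the deacetylases, had 20.1 ± 1.37 CPM at E18 and 8.66 ± 2.46 CPM at P5 (± SD, 3 samples per age), a log2 fold change of 1.22 (edgeR adjusted p = 0.00185). The histone chaperone Rbbp7 was lower at E18, with a log2 fold change of -0.49 and a standard error of 0.10 (edgeR adjusted p = 0.00565). Brms1l was also lower (-0.35, edgeR adjusted p = 0.0148), a call lost without E18 replicate 1 or 3.

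Of 6 other chromatin factors that REST or its partners recruit, 4 were higher and 2 not called, with a median of 0.52. Smarca4, the ATPase of the BAF remodeling complex, had 582, 603 and 585 CPM at E18 and 314, 314 and 324 CPM at P5. Its log2 fold change of 0.89 had a standard error of 0.08 (edgeR adjusted p = 0.000166). Kdm5c, a demethylase of lysine 4 of histone H3, was also higher, with a log2 fold change of 0.55 and a standard error of 0.08 (edgeR adjusted p = 0.00129).

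Of 8 regulators of REST, 3 were higher, 1 lower and 4 not called, with a median of 0.07. Srrm4 (nSR100), a splicing factor that switches Rest to a truncated isoform in neurons, was 2.23-fold higher at E18. Its level was 26.9, 32.8 and 20.6 CPM at E18 and 10.7, 14.1 and 11.2 CPM at P5, without overlap, with a log2 fold change of 1.16 and a standard error of 0.19 (edgeR adjusted p = 0.00183). Gene counts do not separate the isoforms of Rest. Of the small phosphatases that stabilize REST, Ctdsp2 was higher at E18 (log2 fold change 1.12, edgeR adjusted p = 0.00185) and Ctdspl was lower (-0.60, edgeR adjusted p = 0.00344), at 8.75, 8.75 and 8.92 CPM at E18 and 13.2, 13.5 and 13.5 CPM at P5.

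Of 10 enzymes of the same families as the members, 5 were higher, 1 lower and 4 not called, with a median of 0.27. The deacetylase Hdac8 had a log2 fold change of 0.72 with a standard error of 0.14 (edgeR adjusted p = 0.00373). The lysine 9 methyltransferase Suv39h2 had one of 0.63 with a standard error of 0.17 (edgeR adjusted p = 0.0188), lost when E18 replicate 1 or 3 or P5 replicate 6 or 9 was left out. Kdm1b, the paralog of Kdm1a, was lower at E18 (-0.28, edgeR adjusted p = 0.0350), a call that held only without P5 replicate 8 among the 6 omissions of 1 library.

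The genes that REST is known to silence were mostly lower at E18. Of 36 textbook REST targets, all of them tested, 22 were lower at E18, 4 were higher and 10 were not called, with a median log2 fold change of -0.46, where 22.5% of all genes tested were lower and 20.8% higher. The E18 values of 22 lay below P5 without overlap, those of 6 lay above, and 8 overlapped. Across all genes tested, 28.5% lay below without overlap and 27.6% above. Synaptic and channel genes were among those lower at E18: the vesicle fusion protein Snap25 had a log2 fold change of -1.21, the sodium channel gene Scn2a1 one of -1.15 and the synaptic vesicle gene Syp one of -1.08. These examples were chosen after their values were seen.

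Camkv, a kinase-like protein of synapses, had 12.7, 13.3 and 14.7 CPM at E18 and 63.1, 50.6 and 101 CPM at P5, a log2 fold change of -2.40 with a standard error of 0.24 (edgeR adjusted p = 0.000277). Crh, the gene of corticotropin-releasing hormone, had 4, 1 and 4 counts at E18 and 102, 29 and 129 counts at P5, so that its fitted log2 fold change of -4.81 (standard error 0.74, edgeR adjusted p = 0.00156) rests on few reads. Other targets were higher at E18: the atypical cadherin gene Celsr3 had a log2 fold change of 0.57 (edgeR adjusted p = 0.00260), and the neuronal tubulin gene Tubb3 had one of 0.49 (edgeR adjusted p = 0.00247). With E18 replicates 1 and 3 left out, which leaves 1 library at E18, the median log2 fold change over the targets was -0.35.

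**Figure D5:**
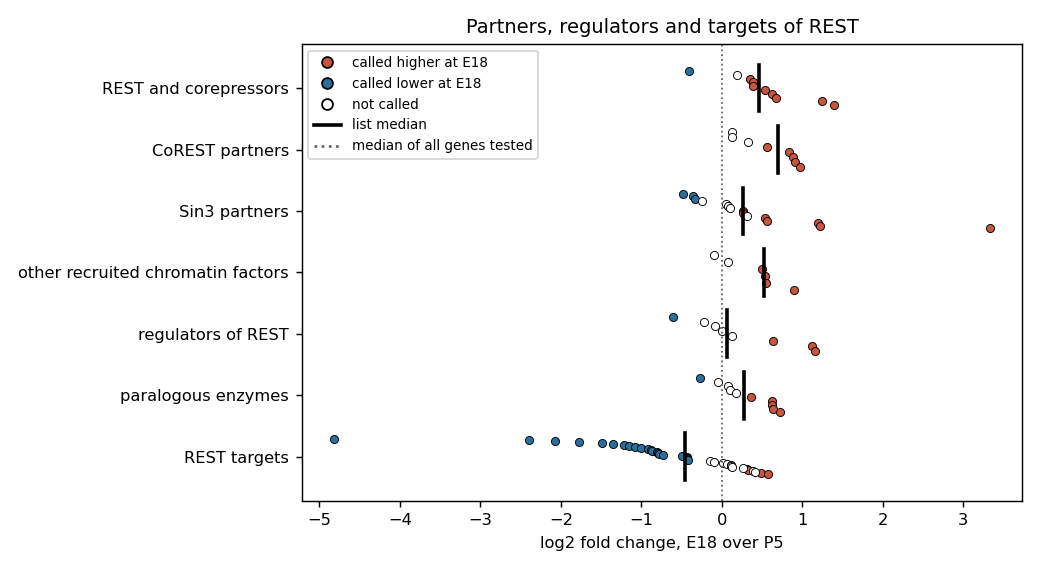
Log2 fold change, E18 over P5, of each gene of the complex, its partner and regulator lists and the REST targets. Bars give list medians, from 0.69 for the CoREST partners to -0.46 for the targets, and the dotted line gives the median of all genes tested, 0.0047.

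The sequence that REST reads can be seen in a few of these genes. The RE1 consensus was searched on both strands of RefSeq promoters of GRCm38.p6, in windows from 250 bases before to 50 bases after the start site. It was present in 21 of 32851 promoters (0.0639%). Of the 10 members 8 had a promoter to search, and 0 of these matched. Among the 24 REST targets with a promoter, 2 matched, Gria2 and Scamp5. They are shown with the other 3 genes that held a match and passed the test, as reference sequence on the strand of the match, with the 16 positions of the consensus in capitals.
Gria2: ttTTAGCACCGCGGACAGcg
Scamp5: atTTAGCACCACGGACAGct
Osbp2: ctTCAGCACCGCGGACAGcg
Lhfpl5: ttTCAGCACCGCGGCCAGcg
Crip2: ctTCAGCACCACAGACAGga

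The capitals of Gria2 lie at chr3:80802990-80803005 (plus strand), those of Scamp5 at chr9:57468198-57468213 (minus strand) and those of Osbp2 at chr11:3774792-3774807 (plus strand). Those of Lhfpl5 lie at chr17:28575645-28575660 (minus strand) and those of Crip2 at chr12:113140082-113140097 (plus strand). Their middles stand at -162 bases from the start site in Gria2, -145 in Scamp5, -131 in Osbp2, -66 in Lhfpl5 and -146 in Crip2. Gria2, a subunit of AMPA receptors, had 314, 338 and 366 CPM at E18 and 606, 523 and 566 CPM at P5, a log2 fold change of -0.74 with a standard error of 0.10 (edgeR adjusted p = 0.000801). Scamp5, a protein of secretory vesicles, had 164, 172 and 192 CPM at E18 and 215, 249 and 249.5 CPM at P5 (log2 fold change -0.44, standard error 0.10, edgeR adjusted p = 0.00888).

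Osbp2 (log2 fold change -0.91) and Lhfpl5 (-1.03) were lower at E18, and Crip2 was higher (0.84). Of the 11 tested genes with a match, 4 were called lower, 1 higher and 6 not called, and 8 had a negative log2 fold change, with a median of -0.38. The share called was close to the 43.4% of all genes tested, and Gria2 and Scamp5 are also counted among the REST targets. A match describes the letters in the window and does not show that REST was bound there in these cells.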

How the data were processed

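The authors sequenced RGC libraries depleted of ribosomal RNA as 100-base paired-end reads, aligned the reads with STAR 2.4.0 to the mm10 genome and counted those on RefSeq genes with HT-seq 0.6.1. The labels name polyA RNA instead. The submitters' processing notes also name CASAVA 1.8.2 and edgeR. The table deposited by the authors holds raw read counts per gene, which were used, and normalized counts, fold changes, p-values, false discovery rates and a rank, which were not. The name of the column taken as E18 replicate 1 holds 2 and 5 besides 1, and whether it pools preparations is not stated. Strand setting and treatment of reads that map to several genes are not given in the sources used here.

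Counts were scaled by TMM, filtered with filterByExpr and tested over the whole table in edgeR 4.0.16 (R 4.3.3, quasi-likelihood test). P-values were adjusted by Benjamini-Hochberg over all genes tested and called under 0.05. CPM uses TMM library sizes. Standard errors come from the fold change and its F statistic. Between samples of an age, chi-square per degree of freedom was 30.5 to 141, so the spread between samples and not counting error sets the precision. Ratios were compared by exact permutation. Scripts were tested on simulated data. Coordinates and lengths come from GENCODE M21.

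The members and lists were chosen with earlier results of these data known. Named outside the members are, in each list, up to 2 genes with the largest positive and 2 with the largest negative log2 fold change (E18 over P5) among those called without overlap, besides Srrm4, Sin3b, Hdac3 and Fam60a, and the 3 genes most like Rest. Ctdsp1 was named to complete its family, outside this rule and outside the alternatives counted for named genes. Genes with a promoter match were named after their values were seen. Alternatives were DESeq2 1.42.0, other scalings, other filters on low counts and the omission of libraries.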

Additional observations from a re-analysis of the deposited data

How the results depend on the processing

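With 3 libraries per age, calls of small changes depend on single libraries. Under DESeq2, other scalings and other filters, 8 members stayed higher and 1 lower, and scaling moved the median of all genes by less than 0.1. Leaving out 1 library at a time gave 4575 to 8796 genes called, against 7135 with all, with 6 to 8 members higher and 0 to 1 lower. It gave 17 to 25 partners higher and 2 to 5 lower, and 2 to 4 REST targets higher and 19 to 22 lower. The lowest gene count came without E18 replicate 3. Leaving out E18 replicates 1 and 3 together, chosen after seeing the data, gave 1633 genes called, 2 members higher and 0 lower, 7 partners higher and 0 lower, and 1 REST target higher and 10 lower, with fewer samples in the fit. Of 120 combinations of member and alternative, 105 kept call and direction, 15 lost the call and 0 reversed. Rcor2 and Hdac2 kept their calls in all 12. Of 275 for the other named genes, 247 kept call and direction, 25 lost the call and 3 reversed, none of them called: Sin3b at -0.0028 without P5 replicate 8, and Hdac3 at 0.0010 without E18 replicate 1 and 0.0089 with both E18 libraries left out. With 1 library left out, Sin3b ranged from -0.0028 to 0.12 and Hdac3 from -0.081 to 0.0010. The causes were not tested. No paired analysis was possible because the ages share no replicate number.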
